A study of Mus musculus with 15 samples.

Results

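RNA of the colon was compared between mice labelled WMW-H and mice of the AOM/DSS model, with 5 libraries in each group, 10 of the 15 libraries of the series. The members were chosen by the group label, and the genes by a filter: of 22063 genes in the deposited table, 12917 had at least 1 FPKM in at least 5 of the 15 libraries and were tested. FPKM is a transcript level already divided by transcript length and by library depth.

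All groups were wild-type C57BL/6 mice. The AOM/DSS model combines azoxymethane (AOM), a carcinogen, with the colitis-inducing salt dextran sulfate sodium (DSS), and it produces colon tumours by chemical means, with no engineered allele. The treated group carries WMW-H as its only treatment label, and the design text calls it a treatment group beside the model; its label does not repeat AOM/DSS. The series is about Wumei Wan, a herbal formula. The third group is a blank control, whose values are used here only to place the levels of the other groups. The sources used here give no age, sex, dose or duration, and do not say what "-H" stands for.

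The tissue label was colon and the cell type label named colonic epithelial cells, while the design text speaks of colorectal cancer tissue and no isolation step was described. Epithelial markers were high: Vil1, a microvillus protein, averaged 237 FPKM in model and 235 in WMW-H, and Krt20 averaged 446 and 489. Markers of other cells were also present, among them Myh11 of smooth muscle at 142 and 168 FPKM, Col1a1 of fibroblasts at 50.1 and 42.8, and Pecam1 of endothelium at 25.4 and 23.9. The libraries thus hold transcripts known from several cell types, and fewer cells of a type and less RNA per cell cannot be told apart.

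In the colon, interferons bind surface receptors and act through STAT proteins and IRF9, which bind the interferon-stimulated response element (ISRE) and switch on antiviral and antigen-presenting genes. Wnt ligands stabilise beta-catenin, which acts with TCF/LEF factors to keep crypt stem cells dividing; the same pathway is constantly active in most colorectal tumours and switches on its own inhibitors. Neutrophils, macrophages and their cytokines mark colitis, while goblet cells make the mucus barrier. IDO1 opens the breakdown of tryptophan to kynurenine, a ligand of the aryl hydrocarbon receptor (AHR).

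Interferon-stimulated genes were higher in WMW-H than in model, and Wnt feedback, B cell and neutrophil genes were lower. Promoters of 4 interferon-inducible genes and 1 Wnt target that moved with these groups are shown because they hold the letters the respective factors are known to bind. The windows are the 250 bases before the transcription start in RefSeq on GRCm38.p6, 5′ to 3′ along the gene, with motif matches on either strand in capitals. The ISRE core searched was a GAAA half-site, any 2 bases and a further GAAA, and the TCF/LEF core was ATCAAAG. The genes were picked after their values were seen.
Ifit1 (chr19:34640639-34640888, plus strand): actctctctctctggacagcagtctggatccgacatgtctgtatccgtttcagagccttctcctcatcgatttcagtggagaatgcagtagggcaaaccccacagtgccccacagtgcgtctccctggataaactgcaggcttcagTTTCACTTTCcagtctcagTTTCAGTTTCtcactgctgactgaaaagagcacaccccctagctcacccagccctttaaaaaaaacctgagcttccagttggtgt
Isg15 (chr4:156200819-156201068, minus strand): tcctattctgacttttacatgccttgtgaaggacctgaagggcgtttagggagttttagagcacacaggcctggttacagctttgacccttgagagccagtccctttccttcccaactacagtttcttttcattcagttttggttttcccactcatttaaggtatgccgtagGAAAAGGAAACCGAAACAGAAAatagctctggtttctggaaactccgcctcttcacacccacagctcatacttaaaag
Rsad2 (chr12:26456453-26456702, minus strand): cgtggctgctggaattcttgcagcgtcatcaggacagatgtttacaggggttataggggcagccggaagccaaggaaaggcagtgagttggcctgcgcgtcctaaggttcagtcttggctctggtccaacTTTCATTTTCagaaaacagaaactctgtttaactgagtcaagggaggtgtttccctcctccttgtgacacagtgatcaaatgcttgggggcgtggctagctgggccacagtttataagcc
Irgm1 (chr11:48871421-48871670, minus strand): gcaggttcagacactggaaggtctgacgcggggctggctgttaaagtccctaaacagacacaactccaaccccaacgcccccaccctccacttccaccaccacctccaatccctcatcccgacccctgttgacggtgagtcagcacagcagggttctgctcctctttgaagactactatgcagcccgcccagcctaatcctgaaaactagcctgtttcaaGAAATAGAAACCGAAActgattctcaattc
Sp5 (chr2:70474673-70474922, plus strand): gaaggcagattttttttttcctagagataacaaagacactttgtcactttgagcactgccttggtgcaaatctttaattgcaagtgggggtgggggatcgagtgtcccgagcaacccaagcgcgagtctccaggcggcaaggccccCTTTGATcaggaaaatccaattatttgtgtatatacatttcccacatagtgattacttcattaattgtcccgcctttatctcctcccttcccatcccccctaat
The Ifit1 window held 2 separate ISRE cores and the Isg15 window 3 overlapping ones. The count of matches over whole gene lists follows with the interferon and Wnt results, over windows that also include the 50 bases after the start.

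Libraries had estimated depths of 16200000 to 21100000 fragments, read from the steps between low FPKM values. Libraries of a group differed by more than counting error, which alone gives a median chi-square per degree of freedom of 0.840. For genes at 200 to 2000 fragments, this median was 1.58 in model and 3.28 in WMW-H, and over 2000 fragments it was 2.51 and 16.3. The labels do not say that the libraries came from separate animals, so p-values measure only the spread between these libraries, which may be technical. The coefficient of variation is the SD over the mean. For all tested genes averaging at least 10 FPKM in the group, its median was 4.223% in model and 5.545% in WMW-H. For variable segments of antigen receptors averaging at least 10 FPKM, its median was 10.65% in model and 10.8% in WMW-H. Male accessory gland genes, described below, made 0.606% to 0.630% of the FPKM total in the model libraries. Whether the libraries of a group share the same RNA source was not tested. WMW-H replicate 3 stood apart: it lay outside the range of the other 4 WMW-H libraries for 64.3% of 6368 genes averaging at least 10 FPKM in the group, against 30.6% to 36.2% for the other 4 in turn. Between pairs of libraries, where counting error alone gives a median chi-square of 0.45, the median was 0.84 to 1.03 in model. In WMW-H it was 0.89 to 1.07 for pairs without replicate 3 and 2.35 to 2.83 for pairs with it.

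Of the 12917 genes, 3347 (25.9%) were higher and 5286 (40.9%) lower in WMW-H than in model at a limma adjusted p under 0.05. The 5 libraries of WMW-H and the 5 of model did not overlap for 51.2% of genes, so a call or a gap between groups is common here and the sizes of changes carry the description. At a change of at least 2-fold, calls were 108 higher (0.836%) and 249 lower (1.93%). All changes below are differences between group means of log2(FPKM + 1), so those of genes at low FPKM are understated. The median change of all tested genes was -0.07. Quantile normalization moved the balance to 4194 higher and 4269 lower.

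The direction of small changes followed the GC content of the transcript. Over 12899 genes, the change in WMW-H against model had a Spearman correlation of -0.55 with GC content, given as a description, since genes share the same libraries. Genes were split by GC content into 10 groups of equal size. In the group with the least GC, the median change was 0.19, with 50.3% called higher and 9.07% lower. In the group with the most GC, the median was -0.32, with 2.95% higher and 73.9% lower. A correction of each library for GC content, chosen after seeing the data, left 3610 genes higher and 3708 lower. Of 5277 genes called lower that had a GC value, 3075 stayed lower and 221 were called higher. All 108 and 249 genes with at least 2-fold changes were still called in the same direction at an adjusted p under 0.05, but the counts at 2-fold became 114 and 195. Counts with the GC correction therefore stand beside those of the gene lists below. Each list count reads against the 25.9% of all tested genes called higher and the 40.9% called lower. With the GC correction this background is 3610 higher and 3708 lower of 12899 genes. A list near these shares is no result about its members.

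**Figure D1:**
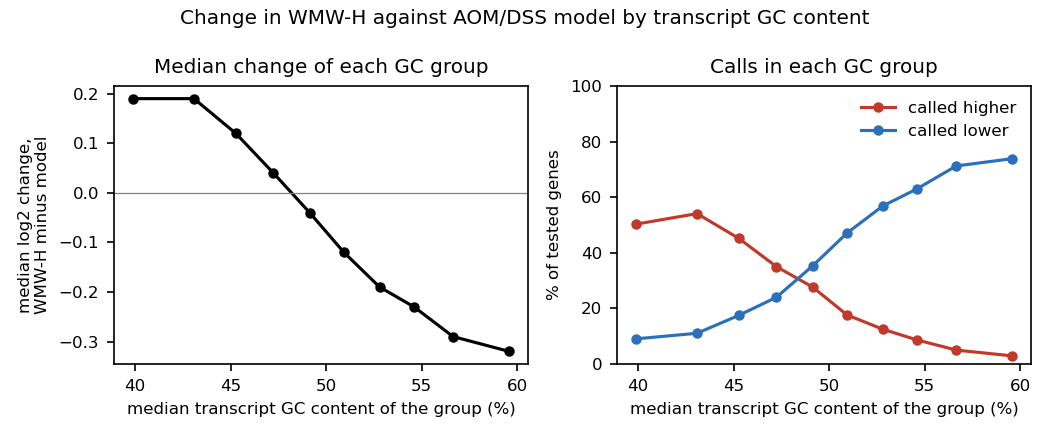
Median log2 change in WMW-H against AOM/DSS model (left) and percentage of genes called higher or lower at a limma adjusted p under 0.05 (right) for 10 equal groups of tested genes ordered by transcript GC content, plotted at the median GC content of each group in percent. The median change goes from 0.19 in the group with the least GC to -0.32 in that with the most.

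**Figure D2:**
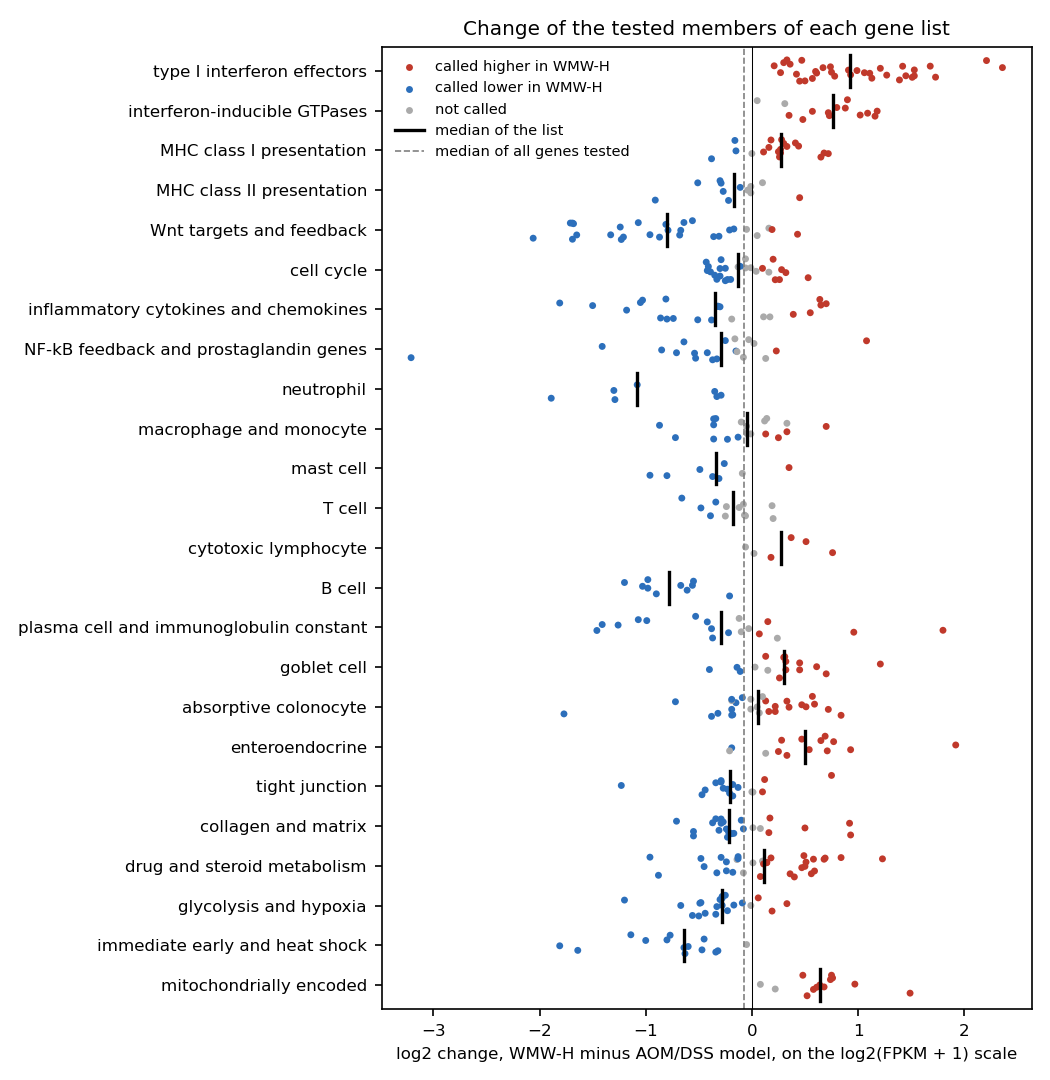
Log2 change on the log2(FPKM + 1) scale of each tested member of 24 gene lists, 1 point per gene, red where called higher in WMW-H, blue where called lower and grey where not called. Black bars mark list medians and the dashed line the median of all genes; interferon effectors lie to the right of 0 and Wnt targets mostly to the left.

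Every tested type I interferon effector gene was higher in WMW-H. Of 35 listed genes, 34 were tested and 34 were called higher, 15 of them by at least 2-fold, with 0 lower. The same 34 genes were called higher with the GC correction. Of these, 1 averaged under 1 FPKM in model and passed the filter through other libraries. The median change of 0.92 compares with -0.07 over all genes, and single members ranged from 0.21 to 2.36.

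Ifit1, which binds viral RNA lacking a proper cap, was at 3.97, 3.63, 4.303, 5.43 and 4.57 FPKM in the model libraries and at 25.6, 25.2, 26.3, 27.5 and 27.3 FPKM in the WMW-H libraries. The lowest WMW-H library lay far above the highest model library, with a 6.02-fold ratio of means and a log2 change of 2.36 (SE 0.065, limma adjusted p = 1.06e-14). Isg15, a ubiquitin-like modifier, was at 10.3, 12.2, 13.3, 11.5 and 10.8 FPKM in model and 59.4, 57.8, 54.7, 54.1 and 59.4 in WMW-H. Its change was 2.21 (SE 0.052, adjusted p = 1.06e-15), again with no overlap. Rsad2, which makes a chain-terminating nucleotide, was chosen with its values known and stood at 1.36, 1.86, 1.598, 1.72 and 1.67 FPKM in model and 6.81, 7.04, 5.07, 6.63 and 7.23 in WMW-H, a change of 1.51. Every WMW-H library exceeded every model library for these genes, and Rsad2 was lowest in WMW-H replicate 3.

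Oasl2, of the family that senses double-stranded RNA, went from 25.2 ± 1.298 FPKM (SD, n = 5) to 67.8 ± 2.98, and Ifit1bl1 from 39.3 ± 1.08 to 109 ± 2.97. Among called genes whose WMW-H and model libraries did not overlap, the 15 largest rises and the 15 largest falls were taken from genes outside 3 lists (male accessory gland, pancreas and Paneth cell) and without variable segments of antigen receptors, pseudogenes and unnamed gene models, some of which changed more. Ifit2 and Ifit3, among these 15 rises, changed by 1.68 and 1.73. Ifit3 shares sequence with its neighbour Ifit3b, so reads may be divided between them. Apol9a and Apol9b, interferon-inducible apolipoprotein L genes outside the list, were also among these 15 rises, with changes of 1.65 and 1.86. Control levels were higher still for most effectors: 30 of 34 were called lower in WMW-H than in control, where 24.1% of all genes were. Control averaged 39.8 FPKM for Ifit1, 84.7 for Isg15 and 152 for Oasl2.

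**Figure D3:**
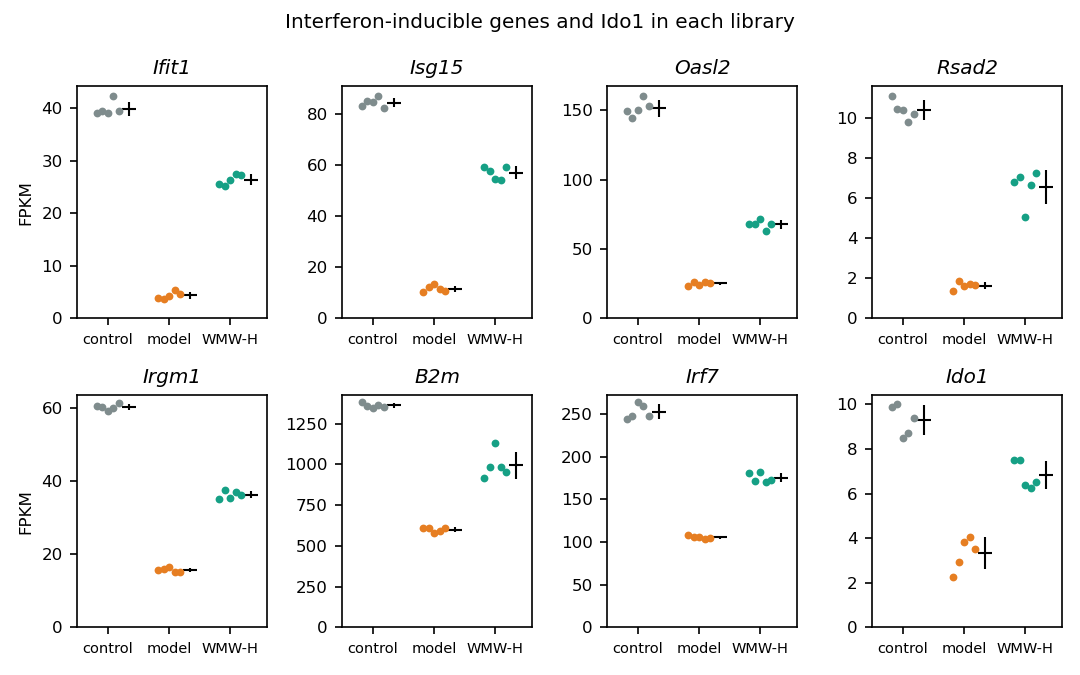
FPKM of 7 interferon-inducible genes and Ido1 in each of the 15 libraries, with the mean and SD of each group (n = 5) as a black bar beside its points. For every gene shown, the 5 WMW-H libraries lie above the 5 model libraries, and the group mean lies below that of control.

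The interferon-inducible GTPases, which attack the vacuoles of intracellular microbes, moved alike. Of 14 tested, of 17 listed, 12 were higher and 0 lower, with 11 higher after the GC correction. Irgm1 was at 15.7, 15.8, 16.6, 15.2 and 15.2 FPKM in model and 35.2, 37.5, 35.5, 36.99 and 36.2 in WMW-H, a change of 1.16 (adjusted p = 2.52e-15) without overlap. Igtp went from 8.69 ± 0.401 to 16.9 ± 1.18 FPKM, Ifi47 from 12.9 ± 0.603 to 23.2 ± 1.299, and Gbp2 from 10.2 ± 0.563 to 17.4 ± 0.834.

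The ISRE core occurred in 14 of the 24 tested type I effectors that had a RefSeq promoter window (58.3%), and in 9 of 10 GTPases, all but Ifi47. It occurred in 3.90% of 10074 tested genes with a window, and in 3.44% of all 32851 windows of 300 bases. Members without a match, such as Ifit2 and Oasl2, rose as well, and no match says only that these letters are not in the window. A match is a description of letters and not of a bound factor.

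The signalling genes upstream were mixed. Of 19 interferon receptor and transducer genes, 9 were higher and 4 lower (10 and 3 with the GC correction), but TPM scaling turned the majority to 5 higher and 7 lower. Irf7, which drives type I interferon genes, went from 106 ± 1.91 to 175 ± 5.38 FPKM and Stat2 from 9.42 ± 0.4599 to 14.1 ± 0.588, and both are known to be interferon-inducible themselves. Lower were Irf3, the sensor-side factor, from 29.97 ± 0.9904 to 19.97 ± 1.61 FPKM, the kinase Tyk2, from 15.4 ± 0.481 to 10.4 ± 0.351, and the feedback inhibitor Socs3, from 15.3 ± 0.994 to 9.48 ± 0.729.

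Of the antigen presentation lists, MHC class I was mostly higher, and the balance of class II depended on the GC correction. In the class I list, whose members load and display peptides to cytotoxic T cells, 15 of 19 genes were higher and 3 lower (17 and 2 with the GC correction). B2m, the invariant light chain, was at 608, 611, 581, 591 and 611 FPKM in model and 918, 983, 1129, 984 and 955 in WMW-H, a change of 0.72 (SE 0.039, adjusted p = 7.39e-11). H2-T23, a non-classical heavy chain, rose by 0.68, the immunoproteasome subunit Psmb8 from 38.4 ± 2.22 to 52.4 ± 2.66, and the chaperone Pdia3 from 222 ± 2.03 to 267 ± 7.92. Against the list, tapasin (Tapbp) fell by 0.38 and calreticulin (Calr) by 0.15.

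MHC class II, which presents peptides to helper T cells, gave 1 gene higher and 7 lower of 12. The GC correction turned this balance to 5 higher and 3 lower. The invariant chain Cd74 was 491 ± 7.24 FPKM in model and 398 ± 10.9 in WMW-H, a fall of 0.30 that was no longer called with the GC correction (adjusted p = 0.195; range over alternatives 6.16e-11 to 0.195). H2-DMb2, a peptide-exchange chain, fell from 6.46 ± 1.33 to 2.94 ± 0.551 FPKM under every alternative run, and Ctss, the protease that trims the invariant chain, rose from 137 ± 1.95 to 188 ± 13.7.

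For the axis named by the series, Ido1 rose, while the rest of the kynurenine list went both ways. Ido1 was at 2.28, 2.94, 3.82, 4.07 and 3.52 FPKM in model and 7.53, 7.51, 6.38, 6.23 and 6.54 in WMW-H, with every WMW-H library above every model library and a change of 0.87 (SE 0.098, adjusted p = 6.98e-07). Control averaged 9.302 FPKM. IDO1 is itself induced by interferon gamma. Of 8 tested genes of the kynurenine list, of 16 listed, 2 were higher and 5 lower, and 3 and 3 with the GC correction. The amino acid transporter subunits that carry tryptophan and kynurenine across the membrane fell, Slc3a2 from 67.8 ± 2.79 to 44.6 ± 1.39 FPKM and Slc7a5 from 13.2 ± 0.6705 to 9.498 ± 0.5299. The aminotransferases that turn kynurenine into kynurenic acid went opposite ways, Kyat1 falling by 0.63 and Kyat3 rising by 0.43. Tdo2, Kmo and Kynu did not pass the filter; their means were 0.0450, 0.676 and 0.375 FPKM in model and 0.0932, 0.805 and 0.522 in WMW-H.

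Of 6 tested AHR genes, of 12 listed, 3 were higher and 1 lower, or 2 and 2 with the GC correction. Nqo1, a quinone reductase also driven by NRF2, was at 23.1, 22.04, 22.6, 23.6 and 23.8 FPKM in model and 36.4, 34.8, 35.1, 36.8 and 39.3 in WMW-H, without overlap. Tiparp, an AHR target that feeds back on it, was at 2.97, 2.903, 2.94, 3.601 and 3.64 FPKM in model and 4.43, 4.71, 4.02, 4.04 and 4.17 in WMW-H. Its rise of 0.33 (adjusted p = 0.000528) was no longer called with the GC correction (adjusted p = 0.101, or 0.138 with the replicate number as a block; range over alternatives 5.68e-05 to 0.138). Ahr itself was not called (4.51 ± 0.108 and 4.15 ± 0.478 FPKM, adjusted p = 0.156), but was called lower with the GC correction (adjusted p = 0.0123; range over alternatives 0.0123 to 0.678). Ahrr, the AHR repressor, Cyp1a1 and Cyp1b1 stayed under the filter, at 0.171, 0.333, 0.303, 0.224 and 0.140 FPKM for Cyp1a1 in the WMW-H libraries and 0.124, 0.151, 0.134, 0.106 and 0.257 in model. The core of the xenobiotic response element, TNGCGTG on either strand, occurred in 0 of the 4 tested members with a promoter window and in 9.30% of tested genes with one.

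Wnt targets were lower in WMW-H. Of 28 tested, of 29 listed, 23 were lower, 11 of them by at least 2-fold, and 2 higher, against a background of 40.9% of all genes lower and 1.93% lower by at least 2-fold. With the GC correction 22 were lower and 4 higher. Of the 28, 1 averaged under 1 FPKM in WMW-H and passed the filter through other libraries. Inhibitors made by the pathway itself come first below, then stem cell genes.

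Nkd1, an inhibitor of Dishevelled, was at 142, 137, 141, 138 and 139 FPKM in model and 44.2, 40.6, 44.8, 44.4 and 44.2 in WMW-H, a 3.19-fold ratio and a change of -1.65 (SE 0.039, adjusted p = 1.08e-15). Notum, an enzyme that inactivates secreted Wnt, was at 49.8, 45.02, 47.6, 48.2 and 46.3 FPKM in model and 13.4, 13.8, 13.1, 15.4 and 14.6 in WMW-H. All WMW-H libraries lay below all model libraries for both genes and above control, where Nkd1 averaged 6.301 and Notum 0.157 FPKM. Sp5, a transcription factor switched on directly by beta-catenin, was at 12.7, 14.7, 12.5, 12.8 and 12.6 FPKM in model and 2.45, 2.31, 2.299, 2.38 and 2.38 in WMW-H, and Apcdd1, a membrane-bound Wnt inhibitor, went from 46.2 ± 1.91 to 13.6 ± 0.804 FPKM.

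Axin2, the negative-feedback scaffold most often read as a sign of Wnt activity, was at 45.6, 48.2, 48.7, 46.5 and 47.9 FPKM in model and 20.1, 18.8, 17.8, 20.3 and 21.2 in WMW-H, and fell by 1.23 (adjusted p = 9.86e-11). Lgr5, the crypt stem cell receptor, went from 6.37 ± 0.387 to 3.599 ± 0.375 FPKM and the stem cell factor Ascl2 from 7.42 ± 0.399 to 3.33 ± 0.372, with control at 1.82 and 3.88. These 3 genes were chosen with their values known. Higher were Slc12a2, a chloride-importing cotransporter of crypt cells, from 38.1 ± 0.836 to 51.9 ± 3.94, and the proliferation-linked Cdca7, from 18.7 ± 0.902 to 21.5 ± 1.38, whose libraries overlapped. The TCF/LEF core shown for Sp5 occurred in 3 of 19 tested Wnt list genes with a window (Mmp7, Sp5 and Tnfrsf19) and in 3.19% of tested genes with one.

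Wnt10a, a Wnt ligand, was among the 15 falls chosen by the same rule, at 9.32, 9.58, 10.1, 8.45 and 8.18 FPKM in model and 1.35, 1.52, 1.19, 0.947 and 1.09 in WMW-H. Others of these falls were Sox17, a transcription factor known to bind beta-catenin, from 18.3 ± 1.48 to 2.66 ± 0.324 FPKM, and Spock2, a secreted proteoglycan, from 168 to 37.6. Stra6, a membrane receptor for retinol-binding protein, went from 70.2 ± 3.99 to 6.54 ± 0.245, Krt36, a hair keratin, from 22.4 ± 0.991 to 2.06 ± 0.278, and Ephb6, an ephrin receptor, from 13.7 ± 0.732 to 2.24 ± 0.195. Mt4, a metallothionein, went from 56.8 ± 7.01 to 7.09 ± 1.25, the zinc transporter Slc30a2 from 20.5 ± 0.653 to 4.06 ± 0.498, and the proton channel Otop1 from 5.32 ± 0.372 to 0.346 ± 0.0516. All 9 had control means between 0.00980 and 4.65 FPKM, and each WMW-H mean lay above that gene's control mean. Otop1 averaged under 1 FPKM in WMW-H and passed the filter through other libraries, so its fall is no support by itself.

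Other genes of regeneration and proliferation went both ways. Among 14 fetal-like and repair genes, 7 were higher and 5 lower, and 4 and 4 with the GC correction. The secreted chaperone Clu fell from 159 ± 3.88 to 89.97 ± 2.79. Anxa1, a mediator of wound repair, rose from 53.02 ± 3.59 to 66.8 ± 2.698. Of 27 cell cycle genes, 7 were higher and 14 lower (5 and 14 with the GC correction), with no change of 2-fold. The replication clamp Pcna rose from 46.4 ± 1.804 to 67.6 ± 2.37, while the mitotic kinases Plk1 and Aurka fell by 0.42 and 0.43. Among 13 p53 targets, 9 were lower, such as Phlda3, an inhibitor of AKT, from 18.03 ± 0.702 to 7.74 ± 1.29, and 2 higher, Ccng1 and the death receptor Fas. The GC correction left 6 lower and 2 higher.

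**Figure D4:**
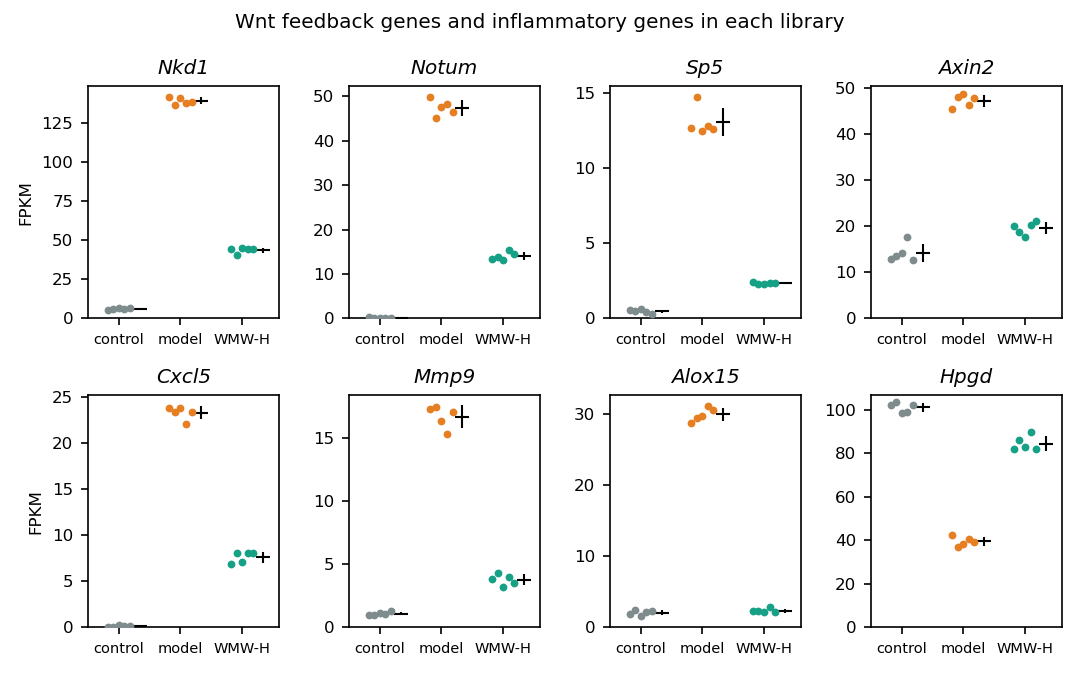
FPKM of Wnt feedback genes (Nkd1, Notum, Sp5, Axin2) and inflammatory or prostaglandin genes (Cxcl5, Mmp9, Alox15, Hpgd) in each of the 15 libraries, with the mean and SD of each group (n = 5) as a black bar beside its points. The WMW-H group means lie between those of control and model for every gene, and for Alox15 the WMW-H and control libraries overlap.

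More inflammatory cytokine and chemokine genes were lower than higher in WMW-H, while their summed level was higher. Of 22 tested, of 33 listed, 14 were lower and 5 higher (13 and 5 with the GC correction). Of those tested, 5 averaged under 1 FPKM in WMW-H and 2 in model and passed the filter through other libraries, so the count is no support by itself. The summed level of all listed genes was 366 to 378 FPKM in model and 440.1 to 471 in WMW-H. The neutrophil-attracting chemokine Cxcl5 was at 23.8, 23.4, 23.8, 22.1 and 23.4 FPKM in model and 6.85, 8.06, 7.06, 8.05 and 8.03 in WMW-H, a change of -1.50 (adjusted p = 3.13e-12). Cxcl2, of the same function, was at 4.63, 4.57, 5.901, 5.15 and 7.08 FPKM in model and 1.04, 1.04, 0.882, 0.636 and 0.606 in WMW-H. Tnf fell from 5.801 ± 0.431 to 2.02 ± 0.492 FPKM and Il1b, chosen with its values known, from 10.3 ± 0.782 to 5.28 ± 0.665. The groups did not overlap for any of these 4. The chemokines Ccl6, Ccl8 and Ccl28 went the other way, Ccl6 from 186 ± 3.36 to 290.3 ± 9.22, Ccl8 from 36.8 ± 2.15 to 60.9 ± 7.01 and Ccl28, made by epithelium, from 10.1 to 13.7.

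Neutrophil genes were lower alongside: all 7 tested, of 15 listed, and 6 with the GC correction or without WMW-H replicate 3. Their summed level was 96.4 to 112 FPKM in model and 47.5 to 60.01 in WMW-H. Mmp9, a gelatinase of neutrophil granules, was at 17.3, 17.4, 16.3, 15.3 and 17.04 FPKM in model and 3.82, 4.33, 3.19, 3.996 and 3.501 in WMW-H. The calprotectin subunits S100a8 and S100a9 went from 11.6 ± 2.48 to 4.23 ± 1.47 and from 19.3 ± 1.57 to 8.67 ± 1.36 FPKM. The part of neutrophil transcripts in the cytokine changes was not tested.

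In the NF-kB feedback and prostaglandin list, 12 of 20 genes were lower and 2 higher (13 and 1 with the GC correction). Alox15, a lipoxygenase, was at 28.7, 29.3, 29.6, 31.1 and 30.6 FPKM in model and 2.34, 2.24, 2.21, 2.83 and 2.15 in WMW-H, a 12.7-fold lower mean that lies at the control mean of 2.07. Hpgd, which degrades prostaglandin E2, moved the other way, from 42.6, 36.9, 38.4, 40.5 and 39.4 FPKM in model to 81.7, 86.2, 82.9, 89.6 and 81.8 in WMW-H, with control at 101. Alox12, another lipoxygenase, fell from 9.92 ± 0.6296 to 3.15 ± 0.6001, and the NF-kB subunit Nfkb2 from 24.04 ± 1.19 to 12.9 ± 0.538. Nos2, which makes nitric oxide in inflamed epithelium and was chosen with its values known, fell from 11.98 ± 0.795 to 4.96 ± 0.478 FPKM.

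The balance of macrophage gene counts depended on the GC correction, while their summed level as deposited was lower in WMW-H. Of 19 macrophage and monocyte genes, 8 were lower and 4 higher, and the GC correction turned this to 3 and 8. Their summed level was 1571 to 1612 FPKM in model, 1238 to 1297 in WMW-H and 780 to 852 in control. Arg1, an arginase of alternatively activated macrophages, fell from 11.7 ± 0.776 to 5.96 ± 0.327 FPKM and the endotoxin co-receptor Cd14 from 33.05 ± 1.67 to 19.6 ± 1.62, while the monocyte receptor Ccr2 rose from 0.719 ± 0.1299 to 1.802 ± 0.313 and the scavenger receptor Mrc1 from 6.13 ± 0.175 to 7.95 ± 0.334. Of the 19 genes, 2 averaged under 1 FPKM in model, Ccr2 among them, and passed the filter through other libraries. The rise of Ccr2 is therefore no support by itself. The defining markers Csf1r and Adgre1 were not called, although leaving out replicate 3 of WMW-H made Adgre1 higher at an adjusted p of 0.0361, within a span of 0.0186 to 0.373 over its alternatives. Their levels were at 37.5 ± 6.12 and 34.8 ± 4.14 FPKM (adjusted p = 0.412) and 8.43 ± 0.541 and 9.46 ± 1.32 (adjusted p = 0.158). In the mast cell list 6 of 8 genes were lower, and 6 with the GC correction, such as the proteases Cma1, from 5.21 ± 0.767 to 2.27 ± 0.886, and Tpsb2, from 8.04 ± 0.531 to 4.25 ± 0.980. Kit was higher (13.9 ± 0.501 to 17.9 ± 0.4704), and the gut's pacemaker cells also express it.

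B cell genes were lower throughout: 10 of 10 tested, of 12 listed, with 10 after the GC correction. Of these, 6 averaged under 1 FPKM in WMW-H and passed the filter through other libraries, so their count is no support by itself, and the summed level of all listed genes is given below. The antigen receptor subunit Cd79a was at 16.6, 14.2, 14.8, 13.9 and 15.8 FPKM in model and 7.26, 7.48, 6.96, 8.51 and 7.75 in WMW-H, and Cd79b at 8.55, 10.02, 8.67, 8.56 and 7.87 and 3.84, 3.73, 3.04, 4.08 and 4.21. The IgM receptor Fcmr went from 3.48 ± 0.466 to 0.956 ± 0.213 FPKM. Here WMW-H lay below control as well, where Cd79a averaged 17.03, Cd79b 9.01 and Fcmr 4.02 FPKM. The list's summed level was 45.3 to 50.5 FPKM in model, 19.6 to 23.2 in WMW-H and 45.6 to 52.2 in control.

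Antibody genes went both ways. Of 18 plasma cell and constant region genes, 10 were lower and 4 higher (10 and 5 with the GC correction). The IgG and IgM heavy chains fell, Ighg2c from 140.4, 142, 139, 139 and 136 FPKM in model to 48.8, 52.6, 54.8, 50.2 and 52.0 in WMW-H, Ighg1 from 178 ± 4.59 to 73.9 ± 2.33, Ighg2b from 231 ± 2.65 to 116 ± 2.19 and Ighm from 73.4 ± 1.99 to 34.5 ± 1.17. Igha, the mucosal class and chosen with its values known, changed by -0.22, from 2950.0 ± 55.1 to 2539 ± 98.7. Jchain, which joins secreted IgA and IgM units, rose from 179, 188, 191, 197 and 203 to 380.0, 385, 335, 384 and 387 FPKM, and the lambda chain gene Iglc3 from 7.67 ± 0.894 to 29.04 ± 2.15. The IgG genes resemble each other, as do the lambda genes, so reads may be divided between copies. Of 166 tested variable segments of antigen receptors, 66 were higher and 61 lower, with changes from -3.17 to 3.35.

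T cell genes were at low levels: 4 of 12 were lower and 0 higher, and 2 lower with the GC correction. This count is no result about T cells beside the 40.9% of all tested genes called lower. Of the 12, 2 averaged under 1 FPKM in WMW-H. Cd8a was not called, nor Cd3e except with the GC correction (adjusted p = 0.0298; range over alternatives 0.0298 to 0.652). Cd3e and Cd8a were at 2.46 ± 0.523 and 2.17 ± 0.2801 FPKM (adjusted p = 0.29) and 1.18 ± 0.109 and 1.08 ± 0.343 (adjusted p = 0.529). The signalling kinase Zap70 fell from 3.91 ± 0.541 to 2.12 ± 0.483. Of 6 cytotoxic lymphocyte genes, of 16 listed, 4 were higher and 0 lower (3 and 0 with the GC correction); 1 of them averaged under 1 FPKM in model. Gzma, a granule protease, was at 1.40, 1.69, 1.38, 0.888 and 0.961 FPKM in model and 1.88, 2.54, 4.59, 2.34 and 3.13 in WMW-H, well under the control mean of 9.29, and Gzmb went from 1.66 ± 0.339 to 2.79 ± 0.503 with overlapping libraries. Cd274, the checkpoint ligand PD-L1 and itself interferon-inducible, rose from 2.66 ± 0.326 to 3.99 ± 0.562, while Tgfb1 fell from 22.3 ± 0.432 to 13.8 ± 1.13.

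Goblet cell genes were mostly higher in WMW-H. Of 16 tested, 11 were higher and 3 lower (15 and 1 with the GC correction), against 25.9% of all genes higher. Ang4, an antimicrobial ribonuclease, was at 445, 448, 452, 439.6 and 434 FPKM in model and 1029, 1089, 980.4, 1019 and 1028 in WMW-H, a change of 1.21 (SE 0.023, adjusted p = 5.88e-17). Agr2, which folds mucin, was at 817, 834, 826, 839 and 846 FPKM in model and 1354, 1358, 1392, 1356 and 1322 in WMW-H. The mucus protease Clca1 went from 1174 ± 13.1 to 1793 ± 32.1, and the mucin Muc2, chosen with its values known, from 817 ± 19.2 to 1122 ± 104. Their control means of 1261, 1667, 3102 and 1409 FPKM were higher still. Fcgbp, a mucin-binding protein, fell from 672 ± 6.25 to 508 ± 21.5, against the rest.

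Enteroendocrine genes rose with them, 11 of 14 higher and 1 lower, or 10 and 0 with the GC correction. Of the 14, 1 averaged under 1 FPKM in model and 1 in WMW-H, and the groups did not overlap for 8. The 1 lower as deposited was the hormone Pyy, whose fall of 0.19 turned to a rise that was not called with the GC correction (adjusted p = 0.131, or 0.167 with the replicate block), with a range over alternatives of 3.19e-05 to 0.167. Neurotensin (Nts) was at 5.401, 5.07, 4.84, 5.76 and 4.24 FPKM in model and 19.6, 24.4, 23.5, 20.4 and 21.5 in WMW-H, above the control mean of 11.97. Proglucagon (Gcg) went from 34.97 ± 1.74 to 67.4 ± 3.28, and the granule proteins Chgb and Scg2 from 61.4 ± 0.594 to 105 ± 7.16 and from 4.85 ± 0.136 to 8.45 ± 0.444. Pancreatic islets also make Gcg, Chgb and Scg2, and pancreatic transcripts rose in the same comparison; their part was not tested. Tph1, which makes serotonin and was chosen with its values known, rose from 12.5 ± 1.66 to 20.99 ± 1.64, and Maoa, which degrades it, from 87.6, 88.2, 87.1, 85.7 and 88.6 to 171, 178, 167, 173 and 174 FPKM; its control mean was 175.

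Absorptive colonocyte genes went both ways, with 12 of 28 higher and 10 lower (15 and 9 with the GC correction), and 12 each way with TPM scaling. The carbonic anhydrases Car1 and Car2 rose, from 2692 ± 15.2 to 3377 ± 65.7 and from 187 ± 3.16 to 260.3 ± 4.26 FPKM, as did the brush border protease Mep1a, from 80.7 ± 0.754 to 120.3 ± 2.03. The sodium and proton exchanger Slc9a3 fell from 66.2 ± 1.88 to 50.7 ± 0.686, the potassium pump Atp12a from 36.4 ± 1.25 to 21.7 ± 0.549 and the sugar-phosphate exchanger Slc37a2 from 15.3 ± 0.464 to 3.81 ± 0.496. Among tight junction genes, 12 of 17 were lower and 3 higher (11 and 5 with the GC correction). Cldn4, a sealing claudin, was at 162, 159, 160.1, 155 and 155 FPKM in model and 68.05, 70.1, 62.7, 66.1 and 67.2 in WMW-H, while Cldn8 rose from 6.99 ± 0.749 to 12.4 ± 0.539.

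The 3 largest rises of all tested genes were in the Reg family of secreted C-type lectins, some of which kill Gram-positive bacteria and which both gut and pancreas can make. Reg3a was at 1.32, 2.28, 1.28, 1.49 and 1.16 FPKM in model and 202, 213, 184, 196 and 205 in WMW-H, a 133-fold ratio of means and a change of 6.34 (SE 0.092, adjusted p = 1.13e-18). Control averaged 1.99 FPKM. Reg2 was at 18.9, 19.3, 22.7, 19.5 and 21.6 FPKM in model and 627, 669, 559.7, 653 and 661 in WMW-H, with control at 23.4. Reg3d, the third of them, went from 4.23 ± 0.592 to 60.8 ± 3.49. Reg3b, a bactericidal lectin of the gut, was at 151, 141, 147, 147 and 146 FPKM in model and 778, 812, 674, 773 and 783 in WMW-H, and Reg1 went from 43.1 ± 2.61 to 320.0 ± 21.4. For these 5 genes the WMW-H libraries lay above those of both other groups. Members of this family resemble each other in sequence, so reads may be divided between them.

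Pancreatic transcripts also rose in the WMW-H libraries. The 34 pancreas genes of the table made 1.53% ± 0.015 (SD, n = 5) of the FPKM total in model and 2.79% ± 0.0717 in WMW-H. A two-sided exact permutation test of 5 against 5 libraries gave p = 0.00794, the smallest this design can give. Every list compared this way gave this same p, and the lists were chosen with earlier results known. The groups also did not overlap for 51.2% of all tested genes, so this p is no support by itself. Control, at 6.45% to 6.53%, had the largest pancreatic share of the 3 groups, with Reg3a and Reg2 at the low levels given above. Reg2 is a member of the pancreas list, so its rise is part of the WMW-H share and of the counts and median below. Of 32 tested pancreas genes, 27 were higher and 2 lower (28 and 2 with the GC correction). The median of their changes was 0.79. Of these 32, 3 averaged under 1 FPKM in model and 3 in WMW-H and passed the filter through other libraries. The count is therefore no support by itself. Of the list, the lipase Pnlip went from 488 ± 6.08 to 876 ± 17.4 FPKM. The amylase Amy2a1 and Cuzd1, a zymogen granule protein, were not in the list, so its share and counts leave them out. They were named for being among the largest rises, by the rule described with Ifit2. Amy2a1 went from 348 ± 16.3 to 2095 ± 77.5 FPKM and Cuzd1 from 3.92 ± 0.387 to 17.5 ± 0.7697. Amy2a2 and Amy2a3 held the same values in every library, as near-identical copies can.

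Other epithelial defence genes were mixed. In the antimicrobial list 9 of 20 were higher, 4 of them by at least 2-fold, all Reg genes (Reg1, Reg3a, Reg3b and Reg3g), and 9 lower, or 11 and 7 with the GC correction. Of the 20, 1 averaged under 1 FPKM in WMW-H. Lcn2, which withholds iron from bacteria and rises in colitis, was at 78.9, 84.7, 78.1, 77.04 and 76.6 FPKM in model and 26.4, 29.6, 21.2, 26.0 and 27.4 in WMW-H. The lectin Itln1 fell from 109 ± 5.46 to 64.7 ± 0.7603, and Duoxa2, which matures the hydrogen peroxide-producing oxidase DUOX2, from 77.01 ± 3.42 to 48.3 ± 1.86. Lypd8l, related to a protein that holds bacteria off the epithelium, was among the 15 rises described with Ifit2, from 15.8 ± 1.43 to 50.5 ± 2.85, with control at 83.1.

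Transcripts known from the male accessory glands and from Paneth cells were lower in WMW-H. The 13 male accessory gland genes made 0.613% of the FPKM total in model (SD 0.01002), 0.0175% in WMW-H and 0.0155% in control. Svs5 and Svs4, secreted by the seminal vesicle, were at 1100.2, 1127, 1108, 1089 and 1138 FPKM and 839, 860.2, 862, 864 and 911 FPKM in the model libraries, and at most 1.85 and 1.34 in any WMW-H library. Sva and Pate14, known from the same tract, were among the 15 falls described with Wnt10a. Sva averaged 33.1 FPKM in model and was listed at 0 in all WMW-H libraries, so it passed the filter through other libraries. The Paneth cell genes, 18 of 19 tested lower, made 0.242% in model, 0.0569% in WMW-H and 0.00196% in control. Defa33, a defensin of the small-intestinal crypt whose copies share reads, went from 109 ± 4.77 to 6.85 ± 1.91 FPKM, and Lyz1, the Paneth cell lysozyme and chosen with its values known, from 444 ± 6.18 to 205 ± 3.17. Means in WMW-H were under 1 FPKM for 10 of 12 tested gland genes and 4 of 19 Paneth cell genes, which passed the filter through other libraries, so the shares over all members carry the comparison. With the GC correction 12 gland genes and 18 Paneth cell genes were lower. Both shares had the smallest exact permutation p of 0.00794, which is no support by itself here either. The labels do not give how the colon was dissected, and the part of such tissue in the other changes was not tested.

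**Figure D5:**
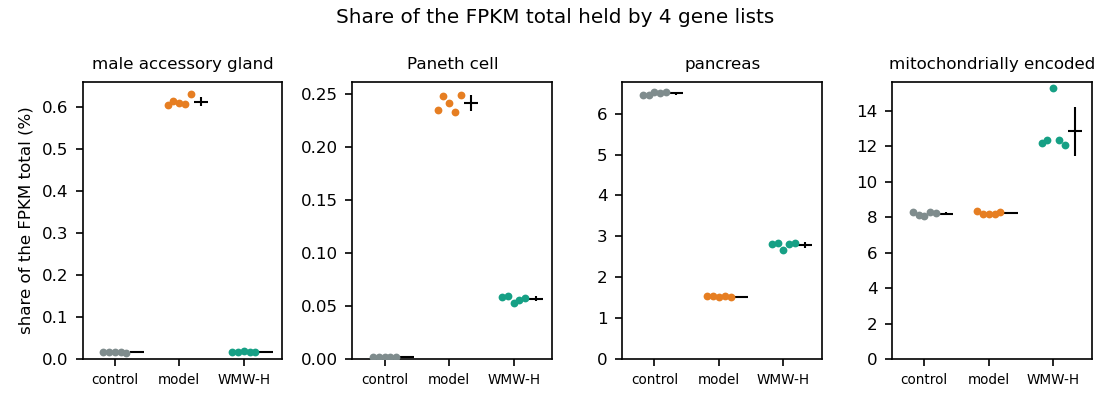
Share of each library's FPKM total, in percent, held by genes of the male accessory gland, Paneth cell, pancreas and mitochondrially encoded lists, 1 point per library with the group mean and SD (n = 5) as a black bar. Gland and Paneth cell shares fall from model to WMW-H, the pancreas share rises, and WMW-H replicate 3 is the highest point of the mitochondrial panel.

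Mitochondrially encoded transcripts rose from 8.24% ± 0.081 (SD, n = 5) of the FPKM total in model to 12.9% ± 1.38 in WMW-H, with control between 8.09% and 8.29%. The exact permutation p of 0.00794 is again the smallest possible and no support by itself. Of 13 genes, 11 were higher and 0 lower, also with the GC correction. The cytochrome oxidase subunit mt-Co1 was at 12606, 12317, 12409, 12551 and 12541 FPKM in model and 23325, 23725, 28478, 23893 and 23263 in WMW-H, the highest value being that of replicate 3. Without that library the count was unchanged, at 11. Nuclear genes of oxidative phosphorylation had no stable balance, with 6 higher and 7 lower of 18, or 10 and 3 with the GC correction.

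Of 21 glycolytic and hypoxia genes, 17 were lower and 3 higher, with a median change of -0.28. With the GC correction 14 were lower and 3 higher, and the median was -0.11. Gapdh, often used as a reference gene, was at 1951, 1965, 1954, 1932 and 1905 FPKM in model and 1388, 1380.1, 1326, 1394 and 1384 in WMW-H. Pkm, Aldoa and Eno1 fell by 0.48, 0.49 and 0.56, while Pdk1, a kinase that inhibits pyruvate dehydrogenase, rose by 0.33. Immediate early and heat shock genes, which also respond to tissue handling, were lower in 13 of 14 cases and higher in 0, or 10 and 1 with the GC correction. Hspa1b, an inducible HSP70 nearly identical to its neighbour Hspa1a, was at 32.7, 32.8, 32.5, 32.7 and 31.2 FPKM in model and 8.73, 7.704, 8.98, 8.59 and 8.75 in WMW-H, and the small heat shock protein Hspb1 went from 126 ± 2.72 to 62.3 ± 4.48. No label describes how the tissue was handled, and its part was not tested.

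Genes of drug and steroid metabolism were higher more often than lower, 18 and 11 of 33 (19 and 5 with the GC correction). The cytochrome P450 Cyp2c65, which oxidises arachidonic acid, was at 39.6, 38.5, 40.5, 41.5 and 41.2 FPKM in model and 92.2, 95.3, 101, 94.98 and 95.5 in WMW-H, near the control mean of 84.2. Cyp4f14, of a family that inactivates leukotrienes, rose from 52.8 ± 2.09 to 95.6 ± 3.46, and the glucuronosyltransferase Ugt2b34 from 62.05 ± 1.22 to 93.6 ± 1.895. The carboxylesterase Ces2a fell from 173 ± 5.16 to 88.7 ± 4.28 and Gstm1 from 263 ± 8.21 to 188 ± 6.098. In cholesterol synthesis, 9 of 17 were higher and 7 lower (9 and 4 with the GC correction), or 7 each with TPM scaling: Hmgcs1, Idi1 and Cyp51 rose by 0.53, 0.64 and 0.63.

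The balance of matrix genes depended on the GC correction. As deposited, 16 of 23 were lower and 5 higher; with the correction 6 were lower and 9 higher. The proteoglycans Dcn and Lum rose, from 60.1, 60.7, 60.9, 59.6 and 55.3 FPKM in model to 113, 113, 119, 113 and 111 in WMW-H for Dcn and from 6.07 ± 0.223 to 12.4 ± 0.518 for Lum, and periostin (Postn) from 27.5 ± 0.961 to 39.2 ± 1.24. Fibronectin (Fn1) fell from 109.8 ± 1.904 to 74.5 ± 1.94 and thrombospondin (Thbs1) from 37.7 ± 0.701 to 22.6 ± 1.09. Among matrix proteases and inhibitors, 9 of 15 were lower and 4 higher (8 and 5 with the GC correction). Those lower included Mmp7, made by tumour epithelium and Paneth cells, from 155 ± 6.42 to 97.2 ± 3.81, and Mmp14, from 73.9 ± 1.995 to 54.1 ± 2.72. Stromelysin (Mmp3) and its inhibitor Timp1 rose, from 4.03 ± 0.187 to 7.91 ± 0.406 and from 6.903 ± 0.810 to 9.91 ± 1.03 FPKM. Adipocyte genes were lower in 9 of 12 cases and higher in 3 (7 and 3 with the GC correction). Of the 12, 1 averaged under 1 FPKM in model and 1 in WMW-H. The lipid droplet protein Plin1 fell from 8.88 ± 0.929 to 4.09 ± 0.236, and adipsin (Cfd) from 78.9 ± 1.95 to 45.8 ± 5.30. Pparg, which epithelium also expresses, rose from 41.5 ± 0.843 to 59.01 ± 1.63. The vasoactive intestinal peptide gene of enteric neurons, Vip, rose from 8.79 ± 0.547 to 18.4 ± 1.07, with 6 of 12 enteric neuron and glia genes higher and 1 lower (9 and 1 with the GC correction). Of these 12, 4 averaged under 1 FPKM in model and passed the filter through other libraries, so the count is no support by itself.

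Counts of the remaining lists follow. They were smooth muscle (5 higher and 4 lower of 12, 8 and 1 with the GC correction), tuft cell (3 higher and 1 lower of 6, 3 and 1 with the GC correction; summed level 46.1 to 48.9 FPKM in model and 31.6 to 36.01 in WMW-H), endoplasmic reticulum folding (10 higher and 6 lower of 17, 9 and 5 with the GC correction), the ATF4 amino acid stress response (5 higher and 9 lower of 15, 6 and 8 with the GC correction) and squamous epithelium (0 higher and 5 lower of 5, 0 and 5 with the GC correction; of these 5, 3 averaged under 1 FPKM in WMW-H). The balance turned or was lost under an alternative for endothelium, with 5 higher and 4 lower of 13 but 4 and 7 with TPM scaling (5 and 1 with the GC correction). It did so for fatty acid oxidation, with 8 higher and 5 lower of 19 but 7 each with TPM scaling (11 and 3 with the GC correction), and for the transport list, with 8 and 6 of 15 but 7 each (7 and 6 with the GC correction). With the GC correction, circadian clock genes went from 3 higher and 6 lower of 14 to 3 each, cytosolic ribosomal protein genes from 6 and 7 of 15 to 7 and 3, and regulatory T cell and checkpoint genes from 1 and 3 of 6 to 1 each. Of the 6 regulatory T cell and checkpoint genes, 2 averaged under 1 FPKM in WMW-H.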

How the data were processed

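Total RNA was extracted with Trizol and libraries were made with oligo(dT) selection and a NEBNext Ultra kit for sequencing on a NovaSeq 6000 instrument (per the labels). The authors deposited 1 table of FPKM values. RSEM, HISAT2, StringTie (1.3.1), Bowtie2 (2.2.8) and fastp (0.18.0) stand in the submitters' processing notes without role or order; a genome build is not given in the sources used here. Multi-copy genes can share reads, which FPKM from such tools may divide between copies.

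A gene was kept where 5 or more of the 15 libraries reached 1 FPKM. limma 3.58.1 in R 4.3.3 was fitted to log2(FPKM + 1) over all 15 libraries, with a trend in the moderation and Benjamini-Hochberg adjustment over all tested genes at a threshold of 0.05. Every adjusted p is from limma. The fit was also run on simulated libraries without a GC trend or an outlying library, so that run says nothing about these features of the data. Figures and other values were made in Python 3.11.15. Shares of the FPKM total were compared by exact permutation. GC content came from GENCODE transcripts matched by gene ID, and each library's log2 values were corrected for it as an added alternative. Depths were estimated from steps between low FPKM values, so counting error is known only approximately.

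The comparison, its genes and the 49 gene lists were chosen with earlier results of these data known. Named genes were the 15 largest rises and falls without overlap, leaving out unnamed models, pseudogenes, variable segments and members of the male accessory gland, pancreas and Paneth cell lists; the 4 largest changes of each of those 3 lists; the 4 members of each list with the smallest p, and up to 3 that went against their list; others are said to be chosen with their values known, or are cell type markers. Alternatives covered the pseudocount, filter, scaling, moderation, test, GC content, replicate number as a block, and leaving out each library. Results for a few genes that the rule names are not reported here.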

Additional observations from a re-analysis of the deposited data

Results flagged for a closer look

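For 350 sets of 5 libraries, 1 per named gene and group, the gap between the most extreme library and its nearest neighbour was divided by the range of the set. It passed Dixon's 95% critical value of 0.71 in 36; chance flags about 1 set in 20. WMW-H replicate 3, the library that stood apart over all genes, was the extreme one in 17 of these. In FPKM, it was high for Chgb at 117.7, Dcn at 119.3, Gstm1 at 198.9, Idi1 at 66.43, Muc2 at 1301, Spock2 at 38.15 and mt-Co1 at 28478. It was low for Car2 at 252.9, Col1a1 at 38.77, Eno1 at 295.8, Gapdh at 1326, Ifi47 at 20.96, Igha at 2366, Jchain at 335.1, Reg3b at 673.6, Rsad2 at 5.065 and Slc12a2 at 45.08. WMW-H replicate 1 was extreme for Slc7a5 at 10.42. WMW-H replicate 2 was extreme for Krt20 at 492.7 and Nkd1 at 40.61. WMW-H replicate 4 was extreme for Alox15 at 2.828. WMW-H replicate 5 was extreme for Ascl2 at 3.995 and Tnf at 2.869. Model replicate 1 was extreme for Fn1 at 113.2 and Tapbp at 124.9. Model replicate 2 was extreme for Cuzd1 at 3.245, Igtp at 9.401, Lcn2 at 84.66, Pdk1 at 8.805, Sp5 at 14.74 and Spock2 at 164.4. Model replicate 4 was extreme for Clu at 151.9 and Cxcl5 at 22.06. Model replicate 5 was extreme for Dcn at 55.27, Hspa1b at 31.23 and Zap70 at 2.980.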

How the results depend on the processing

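The 4 counts of calls stayed within 1.5 times under every alternative run, except that a pseudocount of 0.1 gave 185 genes at least 2-fold higher and 389 at least 2-fold lower. Leaving out 1 WMW-H or model library gave 3207 to 3390 higher and 5128 to 5200 lower, and 101 to 113 and 246 to 260 at 2-fold. Without WMW-H replicate 3, calls were 3390 higher and 5164 lower. TPM scaling gave 2856 higher and 5907 lower, median-of-ratios size factors 3997 and 4424, and the exact rank-sum test 2746 and 4595. With the replicate block, calls were 3323 higher and 5251 lower. Same-numbered WMW-H and model libraries had deviations correlated at -0.029 to 0.021, and 1 of 5 correlated best with its own number. No pairing by number was seen, but these deviations include counting error, so the check cannot exclude one.

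Among named genes a direction reversed in 7 cases. With the GC correction Col1a1 changed by 0.09, Pyy by 0.09 and Vil1 by 0.18, and by the same with the replicate block added; Vil1 changed by 0.06 with size factors. Cd74 and Tiparp lost their calls with the GC correction. The cause was not tested. The labels give no batch or date, so neither can be told apart from the groups.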
